A study of Homo sapiens with 20 samples.

Results

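The genes described here are 10 immediate early genes around serum response factor, namely SRF, EGR1, EGR2, EGR3, IER2, IER5, KLF4, KLF6, KLF10 and CCN1. They were taken as every probe set that the array annotation assigns to exactly 1 of these genes, which gave 18 of the 38070 probe sets that name a single gene, out of 50441 in all. EGR2 had no such probe set in the annotation used here, so 9 genes of the 19353 named in this way were measured. Of the 18 probe sets, 14 (8 genes) reached a group mean above 4.5 on the log2 scale in at least 1 group, the level used as the limit of detection, and were tested together with all 18639 probe sets above it. The other 4 lay below that level in every group.

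Immediate early genes are transcribed within minutes of a growth factor, stress or attachment signal without the need for new protein. SRF is the transcription factor at the base of this response. It binds the CArG box, a run of As and Ts between CC and GG, together with ternary complex factors of the ELK family, which answer to MAP kinases, or with myocardin-related factors, which answer to actin. The products include zinc finger transcription factors of the EGR and KLF families, the regulators IER2 and IER5, and CCN1, a secreted matrix protein. ZFP36 (tristetraprolin) is itself an immediate early product: it binds AU-rich elements of short-lived mRNAs and brings about their deadenylation and decay.

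The arrays measured total RNA from Flp-In T-REx HEK293 cells, a line derived from human embryonic kidney with a single recombination site, in 4 groups of 5. The induced group carried a stable EGFP-tagged human ZFP36 transgene under a doxycycline-controlled promoter and received 1 µg/ml doxycycline for 16 h. The mock-induced group was the same EGFP-ZFP36 line with water instead. The parental HEK293 line, without the transgene, received the same doxycycline treatment in the parental doxycycline group and water in the parental vehicle group. Cells from several flasks were pooled for each sample. Induced cells were sorted for EGFP fluorescence, and mock-induced cells were sorted with fluorescent cells left out. With doxycycline, flasks of the EGFP-ZFP36 line reached a lower confluence than those without, and rounded or floating cells were more frequent in them. The parental line was passaged at another dilution and grown for a shorter time before treatment, so cell line, culture history and day of the experiment cannot be told apart. The sources used here do not say plainly whether parental cells also passed the sorter, and that difference in handling, if there was one, cannot be told apart from the line either. The induced group holds the cells that passed the fluorescence gate, and the stable line is a single integrant population, which limits both as models of HEK293 cells in general.

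The single probe set of ZFP36 had a level of 5.42 ± 0.49 after induction and of 5.36 ± 0.43 without it (mean ± SD on the log2 scale, n = 5 arrays each), and of 3.76 ± 0.58 and 3.45 ± 0.56 in parental cells with doxycycline and vehicle, under the detection limit. The sources used here do not say whether it reads the transgene, and it therefore checks nothing about the induction. Among markers of the HEK293 line, VIM and NEFL were bright in all groups, whereas PAX2 read 2.59 to 2.77 in all groups but induced cells (4.86) and NEFM read 12.3 in both parental groups, 3.87 in mock-induced and 5.81 in induced cells. None of the measured blood cell (4), endothelial (3) or fibroblast (4) markers reached 4.5 in any group. The poly-A control RNAs spiked into each sample were brighter in the induced arrays, at 8.80 ± 0.24 against 8.43 ± 0.18 in the mock-induced ones (two-sided exact permutation test, p = 0.0238), and the 3′ minus 5′ signal of actin, a sign of RNA integrity, was 1.31 ± 0.13 against 1.52 ± 0.14 (exact permutation test, p = 0.0476). Hybridization controls read 12.19 ± 0.10 in induced and 11.90 ± 0.07 in parental doxycycline arrays (exact permutation test, p = 0.00794, the smallest it can give). The part of these shifts in the results below was not tested beyond the centrings given. Parental vehicle replicates 3 and 4 stood apart, each with a mean correlation of 0.989 with the others of its group. Values without both are given where a call turned on them.

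The CArG box is the feature that ties the EGR genes to SRF, so the promoter stretches that hold it are shown for the 2 measured members with one. Promoter windows of 300 bases (250 before to 50 after the start of transcription, RefSeq, GRCh38.p14) were held for 7 of the 10 genes. On either strand, a CArG box occurred in windows of SRF, EGR1 and EGR2, and in 1.29% of all 35116 windows. SRF and EGR1 each had a window with at least 2 boxes, as 0.0313% of all windows did. In the stretches below, all on the + strand, capitals mark the boxes.
SRF, chr6:43171239-43171268, positions -30 to -1 from the start: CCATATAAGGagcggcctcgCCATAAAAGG
EGR1, chr5:138465364-138465393, positions -115 to -86 from the start: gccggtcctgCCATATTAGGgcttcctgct
EGR1, chr5:138465386-138465415, positions -93 to -64 from the start: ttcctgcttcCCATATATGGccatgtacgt
The windows held for IER2, IER5, KLF4 and KLF6 had no CArG box. The GC box GGGCGG, found in 45.0% of all windows and bound by SP and KLF proteins, occurred in windows of SRF, EGR2, KLF4, KLF6 and IER2. The EGR motif GCGNGGGCG, in 9.43% of all windows, occurred in windows of EGR1, SRF, EGR2, KLF4 and KLF6. These are matches of letters and not measured binding.

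**Figure D1:**
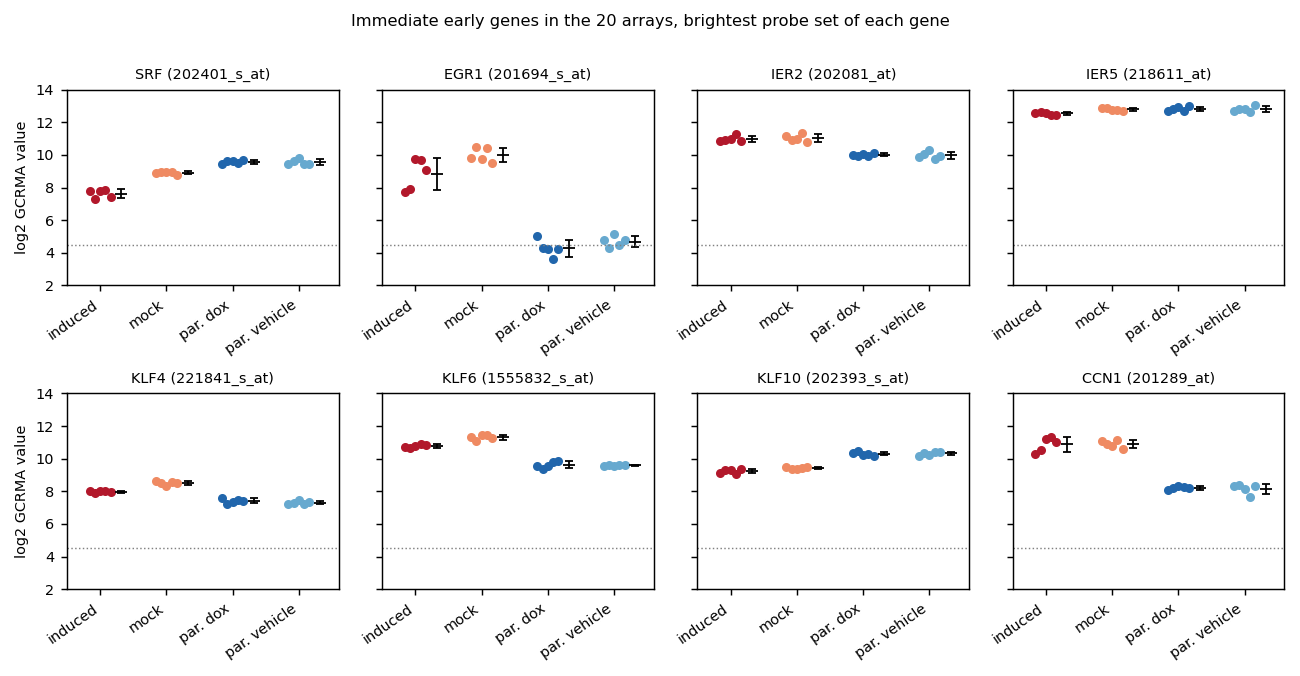
Log2 GCRMA value (y axis) of the brightest tested probe set of each of the 8 tested genes in every array, by group (x axis; par., parental). Points are the 5 arrays of a group, the black mark and bar the mean ± SD, and the dotted line the detection limit of 4.5. EGR1 and CCN1 differ most between the EGFP-ZFP36 line and the parental line, with or without doxycycline. Of the 8 genes, IER5 alone overlaps between the lines, and SRF is lowest in induced cells.

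The first comparison asked how the members stood in the EGFP-ZFP36 line before induction. Mock-induced cells held more EGR1, CCN1, KLF6 and KLF4 mRNA than parental vehicle cells and less KLF10 mRNA. Of the 14 probe sets, 7 were called higher and 1 lower by limma at a Bonferroni-adjusted p under 0.01, and 6 were not called. Over all tested probe sets, 10.2% were called higher and 6.88% lower. The median difference of the 14 was 1.77 on the log2 scale, against 0.04 over all tested probe sets. In every comparison the 14 are not independent, since KLF6 gave 4 of them, EGR1 3 and CCN1 2. By brightest probe set, the differences were 5.31 for EGR1, 2.74 for CCN1, 1.73 for KLF6, 1.20 for KLF4 and 1.06 for IER2. They were -0.03 for IER5, -0.65 for SRF and -0.89 for KLF10. The dimmer EGR1 probe sets, each called higher, lay under 4.5 in every parental array and passed the filter through the EGFP-ZFP36 line alone. In 13 of the 14 the groups did not overlap, 11 of them higher and 2 lower in mock-induced cells, which happened for 31.7% and 26.8% of all tested probe sets. With low probe sets kept in, 4 of the 14 were called higher, where 1261 of all 38070 probe sets were. With a separate spread for each group 3 of the 14 were, where 683 of all 18639 were.

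EGR1, the zinc finger factor whose promoter holds the paired CArG boxes above, differed most. Its brightest probe set, 201694_s_at, read 9.82, 10.47, 9.73, 10.44 and 9.50 in the 5 mock-induced arrays. In parental vehicle arrays it read 4.76, 4.29, 5.15, 4.45 and 4.76, so the parental line lay at the detection limit while every mock-induced array was far above it. The difference was 5.31 (SE 0.22), a 39.7-fold higher level in mock-induced cells (limma, adjusted p = 3.63e-06), and stood 56th highest among 18639 probe sets. The fold rests on parental values near background. Probe set 227404_s_at read between 6.90 and 8.41 in mock-induced and between 2.55 and 3.75 in parental vehicle arrays. With all 5 parental arrays under 4.5, this is an at least 10.2-fold higher level (adjusted p = 0.000207). The dimmest probe set, 201693_s_at, read 5.32 to 6.48 in mock-induced and 2.34 to 2.65 in parental vehicle arrays, at least 2.71-fold higher (adjusted p = 0.000292). Without parental vehicle replicates 3 and 4 this probe set no longer passed (difference 3.49, adjusted p = 0.0235). With all 3 EGR1 probe sets every mock-induced array was above the detection limit, and with 2 of them every parental vehicle array was under it.

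EGR3, a close relative of EGR1, was under the detection limit in every array. Its single probe set, 206115_at, read 2.38 to 3.36 in mock-induced arrays and at most 2.30 in all other arrays, levels too low to compare.

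CCN1, the secreted matrix protein also known as CYR61, showed the next largest difference. Probe set 201289_at read 11.09, 10.92, 10.77, 11.18 and 10.58 in mock-induced arrays and 8.33, 8.36, 8.15, 7.64 and 8.33 in parental vehicle arrays. Every mock-induced array lay above every parental one, by 2.74 on average (SE 0.16), or 6.70-fold (adjusted p = 9.12e-05). Probe set 210764_s_at read 8.56 to 9.74 in mock-induced and 5.65 to 6.86 in parental vehicle arrays. Its difference of 2.77 (SE 0.27) was of the same size and missed the Bonferroni threshold (adjusted p = 0.0162). Parental vehicle replicate 4, one of the arrays that stood apart, was the lowest of its group with both probe sets. Without both such arrays the differences were 2.57 and 2.47, and 201289_at still passed.

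KLF6, a zinc finger factor that binds GC boxes, was represented by 5 probe sets, 4 of them above the detection limit. The brightest, 1555832_s_at, read 11.30, 11.09, 11.47, 11.44 and 11.27 in mock-induced arrays. In parental vehicle arrays it read 9.54, 9.62, 9.58, 9.59 and 9.61, a range far narrower than the gap between the groups. The difference of 1.73 (SE 0.07) was 3.31-fold (adjusted p = 3.78e-06). Probe set 224606_at gave 1.60 (SE 0.11, adjusted p = 0.000518). The remaining pair, 208961_s_at and 208960_s_at, gave 1.81 and 1.96 and were not called (adjusted p = 0.0239 and 0.0124). In both, parental vehicle replicate 3 was the lowest array, at 7.48 and 6.48, and without that array 208961_s_at passed, with a difference of 1.62, as it did without replicates 3 and 4 (adjusted p = 0.00167). Probe set 208960_s_at passed without parental vehicle replicate 1, with a difference of 2.10. The 4 probe sets therefore gave differences between 1.60 and 1.96. The fifth, 211610_at, was under the detection limit in all groups.

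KLF4, a zinc finger factor best known for its part in reprogramming, read 8.66, 8.51, 8.34, 8.60 and 8.49 with probe set 221841_s_at in mock-induced arrays. It read 7.23, 7.26, 7.48, 7.24 and 7.36 in parental vehicle arrays, so the groups were clearly apart. The difference was 1.20 (SE 0.07), or 2.30-fold (adjusted p = 0.000178). The call was lost with centring on the hybridization or poly-A controls (adjusted p = 0.0175 and 1). With poly-A centring the fit gave every tested member probe set the same SE of 0.31. That loss therefore does not rest on the spread of KLF4. The other KLF4 probe set, 220266_s_at, stayed under the detection limit, between 2.25 and 3.61 in all arrays.

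IER2, a short-lived nuclear regulator, read between 10.77 and 11.37 in mock-induced and between 9.74 and 10.31 in parental vehicle arrays. The groups did not overlap, and the difference of 1.06 (SE 0.13), or 2.09-fold, was not called (adjusted p = 0.156), although the Benjamini-Hochberg adjusted p was 3.05e-05. IER5, a regulator linked to the heat shock factor HSF1, was the sole tested member whose groups overlapped. It read 12.69 to 12.90 in mock-induced and 12.64 to 13.07 in parental vehicle arrays, a difference of -0.03 (95% interval -0.22 to 0.15).

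KLF10 and SRF stood the other way. KLF10, induced by TGF-beta and a repressor of transcription, read 9.46, 9.36, 9.37, 9.45 and 9.50 in mock-induced and 10.19, 10.36, 10.22, 10.41 and 10.43 in parental vehicle arrays. Every mock-induced array was the lower, by 0.89 on average (SE 0.06, 1.86-fold, adjusted p = 0.000731). Without parental vehicle replicates 3 and 4 the difference was -0.90 and no longer passed (adjusted p = 0.0131), nor did it with centring on the hybridization or poly-A controls (adjusted p = 0.0328 and 1). The poly-A result carries the same limit as for KLF4. SRF, read by 202401_s_at, was 8.92, 8.97, 8.95, 8.92 and 8.74 in mock-induced arrays. It was 9.44, 9.65, 9.80, 9.43 and 9.46 in parental vehicle arrays, again without overlap. Its difference of -0.65 (SE 0.08, 1.57-fold lower) did not pass (adjusted p = 0.202; Benjamini-Hochberg adjusted p = 3.79e-05). The other SRF probe set, 202400_s_at, read 2.19 in all 20 arrays and carries no information.

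**Figure D2:**
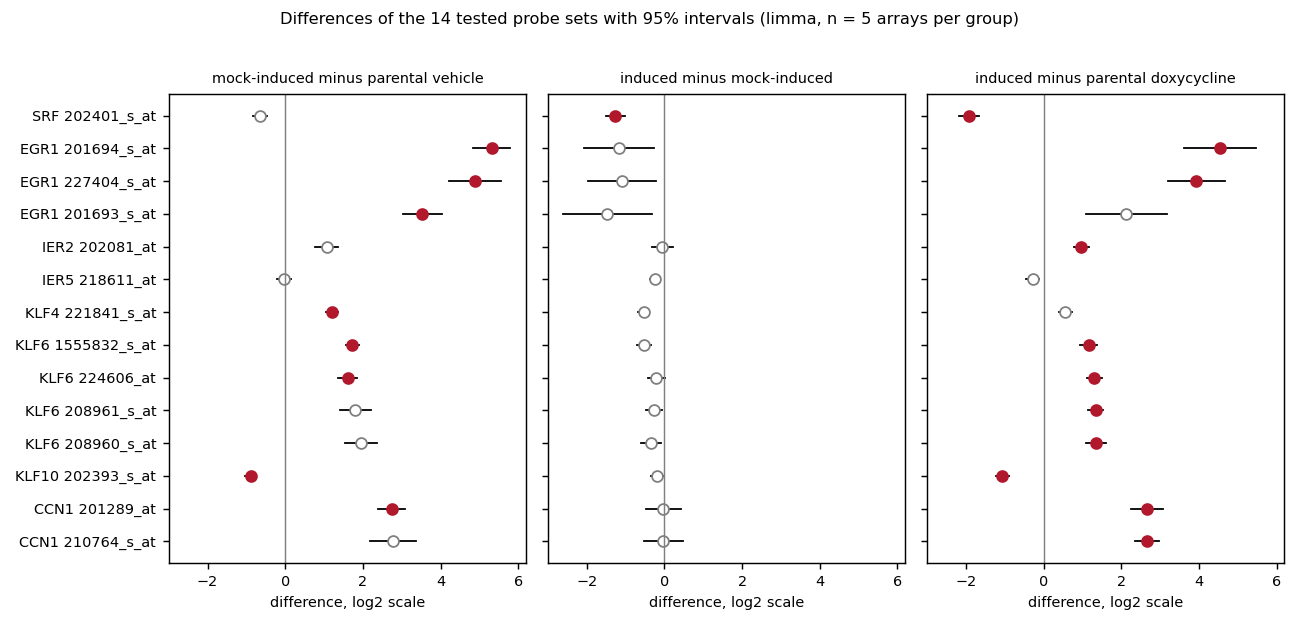
Differences between group means (x axis, log2 scale) of the 14 tested probe sets (y axis) in 3 comparisons, with 95% intervals from limma. Filled points are those called at a Bonferroni-adjusted p under 0.01. EGR1 and CCN1 lie farthest right against the parental line, before and after induction, while SRF is the single filled point between induced and mock-induced cells.

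The second comparison asked what doxycycline induction of EGFP-ZFP36 did to these mRNAs. Induced cells held less SRF mRNA than mock-induced cells, and no other member was called in either direction. Over all tested probe sets, 21.8% were called lower and 22.1% higher, so a single call among 14 is a smaller share than the background. All 14 differences were below 0, from -1.47 to -0.03, with a median of -0.31 against 0.12 over all tested probe sets. With Benjamini-Hochberg adjustment under 0.05, 10 of the 14 were lower and 0 higher, where 38.9% of all tested probe sets were lower. In 5 of the 14, for SRF, IER5, KLF4, KLF10 and the brightest KLF6 probe set, every induced array was below every mock-induced array, against 35.4% of all tested probe sets. Centring on the poly-A controls moved the median of all tested probe sets from 0.12 to -0.24. Then 5 of the 14 were called lower, as were 5807 of all 18639 tested probe sets. In that fit all 14 had the same SE of 0.18, so these calls do not rest on the spread of each probe set. For EGR1 201694_s_at the SE was 0.41 in the main fit.

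SRF read 7.78, 7.33, 7.80, 7.87 and 7.39 in the induced arrays, all below the lowest mock-induced array of 8.74. The difference was -1.27 (SE 0.11, n = 5 arrays each), a 2.41-fold lower level (limma, adjusted p = 0.00496). The size held between -1.33 and -1.19 whichever array was left out, but the call did not: without induced replicate 1, 3 or 5, or any 1 of the 5 mock-induced arrays, the adjusted p rose above 0.01, to at most 0.0367. The call was also lost when low probe sets were kept in (adjusted p = 0.131) and with a separate spread for each group (adjusted p = 1). With the replicate number as a block in limma it was lost too (adjusted p = 0.0938), although the labels do not name pairs. SRF was also the single member called by Bonferroni adjustment for a response to doxycycline that differed between the lines, with an interaction of -1.28 (SE 0.15, adjusted p = 0.000881), called lower as were 20.6% of all tested probe sets. Leaving out any 1 of the 20 arrays kept that call. Poly-A centring and a separate spread for each group ended it (adjusted p = 1 and 0.125), and so did the replicate block. KLF4 had an interaction of -0.65 (SE 0.10) and the brightest KLF6 probe set one of -0.57 (SE 0.12), neither called (adjusted p = 0.0975 and 1; Benjamini-Hochberg adjusted p = 1.12e-05 and 0.000349).

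EGR1 showed large differences and a large spread. Probe set 201694_s_at read 7.69, 7.94, 9.72, 9.68 and 9.09 in induced arrays, and the induced and mock-induced arrays overlapped. Its difference was -1.17 (SE 0.41), and those of 227404_s_at and 201693_s_at were -1.10 (SE 0.39) and -1.47 (SE 0.52). None passed the Bonferroni threshold (adjusted p = 1), and all 3 passed with Benjamini-Hochberg adjustment (adjusted p = 0.0199, 0.0217 and 0.0207). Induced replicates 1 and 2 were the lowest arrays of their group with all 3 probe sets. With 227404_s_at they read 5.80 and 6.10, against 6.84 to 7.70 in the other induced arrays, and with 201693_s_at 3.27 and 3.18, against 4.65 to 5.81. Those same arrays were the lowest of the group for CCN1 with both probe sets, and for the KLF6 probe sets 1555832_s_at, 224606_at and 208961_s_at. Among mock-induced arrays, replicate 5 was the lowest for all 3 EGR1, both CCN1 and the IER2 probe sets. It was also the lowest for SRF, IER5 and the KLF6 probe sets 208961_s_at and 208960_s_at, so this was not particular to EGR1, CCN1 and IER2.

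**Figure D3:**
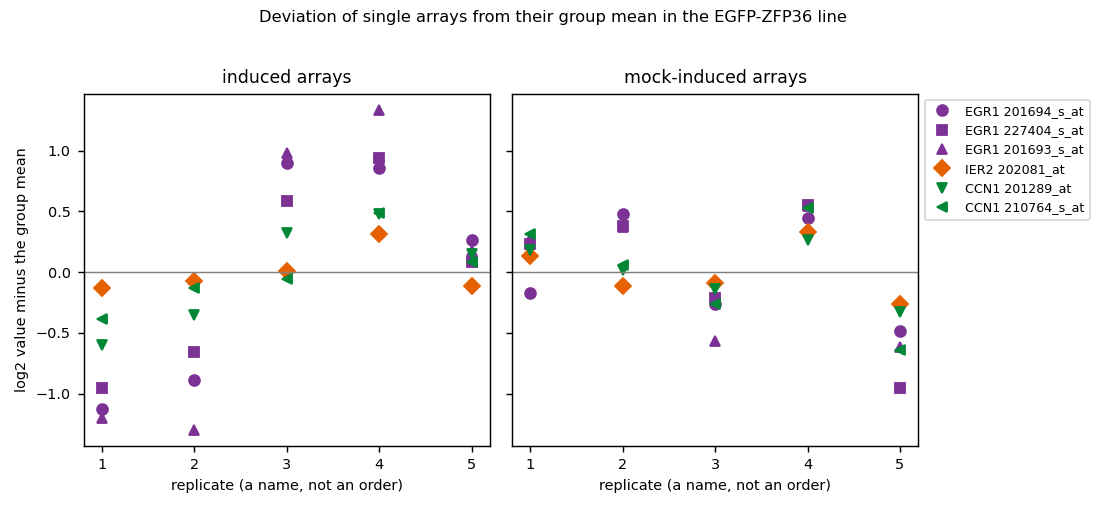
Deviation of each induced (left) and mock-induced (right) array from its group mean (y axis, log2 scale) for the probe sets of EGR1, IER2 and CCN1, by replicate (x axis; the numbers are names). Induced replicates 1 and 2 lie below 0 for all 6 probe sets, and mock-induced replicate 5 is the lowest of its group for all 6.

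The KLF genes differed less. KLF4 read 8.02, 7.88, 7.99, 8.04 and 7.97 in induced arrays, below all mock-induced arrays, a difference of -0.54 (SE 0.06, adjusted p = 0.101; Benjamini-Hochberg adjusted p = 1.01e-05). The brightest KLF6 probe set read 10.74, 10.65, 10.77, 10.92 and 10.85, also without overlap, a difference of -0.53 (SE 0.08, adjusted p = 0.922). The other 3 KLF6 probe sets gave -0.21, -0.27 and -0.35 and overlapped between the groups. For KLF10 the difference was -0.19 (SE 0.07, adjusted p = 1). The KLF4 and KLF6 levels thus lay between those of mock-induced and parental cells.

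IER5 read 12.57, 12.61, 12.59, 12.46 and 12.45 in induced arrays, a difference of -0.25 (SE 0.06) without overlap that did not pass (adjusted p = 1; Benjamini-Hochberg adjusted p = 0.00212). IER2 gave -0.05 (95% interval -0.32 to 0.22). CCN1 gave -0.03 with both probe sets, with 95% intervals of -0.48 to 0.42 and -0.52 to 0.47. The sign of the CCN1 differences turned when single arrays were left out.

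Doxycycline in parental cells gave the control for the agent itself. None of the 14 probe sets was called by limma with Bonferroni or Benjamini-Hochberg adjustment, as was 0.0% of all tested probe sets. At an unadjusted p under 0.05, 0 of the 14 and 414 (2.22%) of all tested probe sets passed. The 14 differences lay between -0.41 and 0.25. SRF gave 0.01 (95% interval -0.19 to 0.20), with 9.42, 9.60, 9.61, 9.47 and 9.71 in the parental doxycycline arrays. EGR1 with 201694_s_at gave -0.41 (95% interval -0.95 to 0.14) at levels around the detection limit.

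The last comparison set induced cells against parental cells with the same doxycycline treatment. It shares the induced arrays with the comparison above, and its own values are given for the members only. EGR1, CCN1, KLF6 and IER2 were higher in induced cells, SRF and KLF10 lower, and the groups did not overlap for any of the 14 probe sets, where 75.1% of all tested probe sets did not overlap. Called were 9 higher and 2 lower, against 21.9% and 19.4% of all tested probe sets. EGR1 with 201694_s_at read 8.82 on average and was called higher (adjusted p = 0.00733). No size is given, since the parental doxycycline mean of 4.27 and 4 of its 5 arrays were under the detection limit. With 227404_s_at, EGR1 was at least 4.78-fold higher (adjusted p = 0.0029). That probe set, counted among the 9, lay under the detection limit in every parental array, as did the dimmest one. Both passed the filter through the EGFP-ZFP36 line alone. The dimmest EGR1 probe set was not called (adjusted p = 1). CCN1 was higher by 2.66 and 2.65 with its 2 probe sets, 6.31-fold with the brighter one (adjusted p = 0.000466 and 2.21e-05). All 4 KLF6 probe sets were called, by 1.16 to 1.35, and IER2 was 1.96-fold higher (adjusted p = 0.00701). SRF was lower by 1.93 on average (SE 0.12), or 3.81-fold (adjusted p = 9.03e-05), and KLF10 by 1.07 (SE 0.08, adjusted p = 0.000533). KLF4 at 0.56 and IER5 at -0.28 were not called. With a separate spread for each group 0 of the 14 were called higher, where 1763 of all 18639 tested probe sets were. When any 1 of the 10 arrays was left out, between 4 and 7 probe sets were called higher in place of 9. SRF, KLF10, CCN1 and the KLF6 probe sets 224606_at and 208961_s_at passed each time, while EGR1, IER2 and the other KLF6 probe sets did not.

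The mean levels of SRF and EGR1 are given in order over the 4 groups. SRF stood lowest in induced cells at 7.63 ± 0.25, then at 8.90 ± 0.09 in mock-induced cells, and at 9.55 ± 0.16 and 9.56 ± 0.12 in parental vehicle and parental doxycycline cells, of which the last pair did not differ beyond their spread. Mock-induced and parental vehicle cells did not overlap but were not called apart. EGR1 (201694_s_at) stood highest in mock-induced cells at 9.99 ± 0.44, then at 8.82 ± 0.96 in induced cells, neighbours that overlapped. Parental vehicle cells at 4.68 ± 0.33 and parental doxycycline cells at 4.27 ± 0.51 followed, overlapping around the detection limit. Over the 20 arrays, the genes whose centred log2 values lay closest to those of SRF, by root mean square difference among 10833 genes, were NUS1 (0.132), NFYA (0.136) and CTPS1 (0.142), where the median over all genes was 0.947. Closest to EGR1 were DCDC2 (0.591), DEPP1 (0.616) and DPY19L2P2 (0.619), with a median of 2.57. The parental means of DCDC2 and DPY19L2P2 lay under the detection limit, so their likeness to EGR1 rests in part on values near background. DCDC2, for example, had means of 8.34 in mock-induced and 7.21 in induced cells, against 2.85 and 2.64 in parental cells with vehicle and with doxycycline.

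Genes that work with the members were followed through 7 lists of 70 genes, 44 of them tested with their brightest probe set. Between the uninduced line and parental vehicle cells, 4 of the 44 were called higher and 3 lower, with a median of -0.03. Over all tested probe sets the shares were 10.2% and 6.88%. In a separate fit with 1 probe set per gene, 1425 of 10834 were called higher and 1180 lower. CCN2, the nearest relative of CCN1 and like it a target of YAP and TEAD, read 7.08 ± 0.49 in mock-induced and 4.06 ± 0.41 in parental vehicle cells and was called higher (adjusted p = 0.00419). The parental mean lies under the detection limit, so no size is given. PHLDA1, a pleckstrin homology protein, was 3.38-fold higher (adjusted p = 9.24e-06). TPM1, a tropomyosin and SRF target, and WWTR1, the YAP relative TAZ, were 1.81-fold and 1.68-fold higher. KLF11, the nearest relative of KLF10, was 2.64-fold lower (adjusted p = 5.80e-06), and RHOB and TEAD2 were 3.03-fold and 2.19-fold lower. Without parental vehicle replicates 3 and 4, 1 gene was called lower in place of 3. Without 1 of mock-induced replicates 2, 4 and 5 or parental vehicle replicates 1, 3 and 5, 2 were called higher in place of 4.

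After induction, 11 of the 44 were called lower, 1 higher and 32 not, with a median of -0.49, where 21.8% and 22.1% of all tested probe sets were called lower and higher. The fit with 1 probe set per gene called 2500 of 10834 lower and 3123 higher. Of 4 tested SRF cofactors, ELK3, a ternary complex factor that represses in its resting form, fell from 10.02 ± 0.11 to 8.21 ± 0.05 (difference -1.81, adjusted p = 1.71e-07), and the other 3 were not called. Those were ELK4 at -0.23, MRTFB at 0.48 and MRTFA at 0.72. Of 5 cytoskeletal SRF targets, TPM1 fell by 0.90 and 4 were not called. The uncalled differences were all above 0, at 1.22 for ZYX, 0.56 for ACTA2, 0.40 for VCL and 0.15 for FHL2. The median of this list was 0.40. Among 3 tested EGR relatives and corepressors, WT1 fell by 1.46 and NAB1, a corepressor of EGR1, by 0.93. Among 10 other KLF genes, KLF3 fell by 1.25 and KLF12 by 0.77, both known as repressors, and 8 were not called. Those 8 ranged from -1.47 for KLF16 to 1.40 for KLF7. Of 6 tested Hippo pathway genes, WWTR1 fell by 2.44, its relative YAP1 fell by 1.39 and their DNA-binding partner TEAD1 fell by 0.97, while TEAD4 rose by 1.62. Among 14 other immediate early genes, JUN fell by 2.50 and PHLDA1 by 1.69, and 12 were not called. Those 12 ranged from -2.40 for RHOB to 0.83 for JUND. Neither tested member of the list of other IER and CCN genes was called.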

How the data were processed

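Total RNA of 20 HEK293 samples was hybridized to Affymetrix Human Genome U133 Plus 2.0 arrays, 5 per group by the sample labels. The values deposited by the authors are log2 intensities after GCRMA, whose version the sources used here do not give. Gene names came from the annotation of the platform, where 38070 probe sets name 1 gene, and 38018 of these matched the RefSeq gene table. The 18639 with a group mean above 4.5 in 1 group or more entered the tests, made with lmFit and eBayes of limma 3.58.1 (R 4.3.3) on the arrays of the groups compared, or on all 20 for the interaction. The threshold for a call was a Bonferroni-adjusted p of 0.01. A fold against a group whose arrays all lay under 4.5 was given as a bound, counted from 4.5. Exact permutation tests compared array controls. The fit was tested on simulated data. Tables and figures were made with Python 3.11.15, pandas 2.3.3 and matplotlib 3.10.9.

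All probe sets of the members are named, the brightest first. From each list, up to 3 genes called after induction in each direction with the smallest p are named, and for SRF and EGR1 the 3 genes closest over the 20 arrays. The list genes called between the lines were named after their values were seen, and 1 array pair was left out as an alternative chosen after seeing the data. Members and lists were chosen with earlier results of these data known. Samples came from 5 separate days for each line, and the paper describes treated and untreated parental cells handled as pairs. The sample labels do not say which arrays share a day. The main fit ignores such pairs, so p-values measure the spread between days, and the number of arrays limits the precision. Same-numbered arrays were not treated as pairs. Alternatives covered 1 probe set per gene, no filter, Benjamini-Hochberg adjustment, the replicate number as a block, separate spreads, 1 model over all arrays, centring on control RNAs or the median, probe sets without the _s, _x or _a suffix, and leaving out each array.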

Additional observations from a re-analysis of the deposited data

Results flagged for a closer look

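Among 56 groups of 5 arrays (14 probe sets in 4 groups), 4 had an array far from its group by Dixon's 95% value, where chance gives about 1 in 20. SRF 202401_s_at read 8.74 in mock-induced replicate 5, with the nearest other array at 8.92. KLF6 208961_s_at read 7.48 in parental vehicle replicate 3, with the nearest at 8.32. EGR1 201693_s_at read 2.36 in parental doxycycline replicate 4 and 2.65 in parental vehicle replicate 1, with the nearest arrays at 2.34 and 2.36, all far under the detection limit of 4.5.

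The response of SRF to doxycycline differed between the lines, with an interaction of -1.28 on the log2 scale (limma, adjusted p = 0.000881). Of the 14 probe sets it was the single one called by Bonferroni adjustment in that test, where 20.6% of all tested probe sets were called lower. The call was lost with poly-A centring, with separate spreads and with the replicate block.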

How the results depend on the processing

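Of 1210 single values recomputed under the alternatives, 1044 kept their direction and side of the threshold, 104 lost the call, 43 gained one and 19 turned sign. The turns concerned differences close to 0. Between induced and mock-induced cells, leaving out single arrays gave -0.130 to 0.0310 for IER2, -0.152 to 0.119 for CCN1 201289_at and -0.188 to 0.105 for CCN1 210764_s_at, and median centring turned the CCN1 probe sets to 0.00941 and 0.0137. Those turns came without mock-induced replicate 4 (all 3 probe sets), mock-induced replicate 1 and induced replicates 1 and 2 (CCN1). Between the lines, IER5 ranged from -0.0769 to 0.0322, above 0 without parental vehicle replicate 5. In the interaction, CCN1 201289_at ranged from -0.208 to 0.0623, above 0 without induced replicate 1 or 2 or parental vehicle replicate 4, and CCN1 210764_s_at from -0.282 to 0.0743, above 0 without parental vehicle replicate 4 or mock-induced replicate 4. Without both parental vehicle replicates 3 and 4 these were 0.0898 and 0.181. The cause was not tested.

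Of the 14 probe sets, those called lower after induction numbered 1 and became 0 with no filter, 0 with separate spreads, 5 with poly-A centring, 10 with Benjamini-Hochberg adjustment and 0 among the 4 tested probe sets without the suffixes, where SRF is absent by construction. Leaving out single arrays gave 0 to 1. Over all tested probe sets, 5807 of 18639 were called lower with poly-A centring, against 4072 in the main fit. With poly-A centring all 14 shared 1 SE, 0.18 after induction and 0.31 between the lines. Calls gained or lost with it there do not rest on the spread of each probe set. Those called lower between mock-induced and parental vehicle cells (1) became 2 with Benjamini-Hochberg adjustment and 0 with separate spreads, with either control RNA centring, without the suffixes and without both arrays that stood apart, and stayed at 1 without single arrays. Those called higher there (7) became 4 with 1 probe set per gene, 4 with no filter, 11 with Benjamini-Hochberg adjustment, 3 with separate spreads, 11 in 1 model over all arrays and 2 without the suffixes, and 7 to 8 without single arrays. Between induced and parental doxycycline cells, the 2 called lower became 1 with separate spreads and 0 without the suffixes, and stayed at 2 without single arrays. The 9 called higher became 4 with 1 probe set per gene, 2 with no filter, 0 with separate spreads and 3 without the suffixes, and 4 to 7 without single arrays. In the interaction, the 1 called lower became 6 with Benjamini-Hochberg adjustment, 0 with separate spreads, 0 with poly-A centring and 0 without the suffixes, and stayed at 1 without single arrays. For doxycycline in parental cells the count was 0 in each direction under every alternative run. Over all probe sets, 1261 of 38070 were called higher between the lines with no filter, and 683 of 18639 with separate spreads.

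Of the list genes after induction, the 11 called lower became 24 with Benjamini-Hochberg adjustment, 6 with separate spreads and 19 with poly-A centring, and 9 to 11 without single arrays. The 1 called higher became 2 with 1 probe set per gene, no filter, poly-A centring or without the suffixes, 4 in 1 model over all arrays and 11 with Benjamini-Hochberg adjustment, and stayed at 1 without single arrays. Of those between the lines, the 3 called lower became 1 with no filter, separate spreads, poly-A centring or without both arrays that stood apart, 16 with Benjamini-Hochberg adjustment and 5 in 1 model over all arrays, and 2 to 3 without single arrays. The 4 called higher became 2 with no filter or separate spreads, 16 with Benjamini-Hochberg adjustment and 7 in 1 model over all arrays, and 2 to 5 without single arrays.

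The replicate numbers were not taken as pairs. Deviations of same-numbered arrays correlated at 0.0139 to 0.212 between induced and mock-induced cells, where 1 of 5 arrays correlated best with its own number, and at -0.192 to 0.383 between the parental groups, where 2 of 5 did. With the replicate block, the counts of the 14 probe sets were 0 lower after induction (SRF, adjusted p = 0.0938), 0 lower and 2 higher between the lines, 0 lower and 2 higher between induced and parental doxycycline cells, and 0 lower in the interaction (SRF, adjusted p = 0.0107). Those of the list genes were 5 lower after induction, and 1 lower and 1 higher between the lines. The share of lower calls over all tested probe sets moved with centring, from 49.7% to 70.8% after induction with poly-A centring, and from 40.3% to 27.4% and 52.8% between the lines with poly-A and median centring. Values near 4.5 are limited by signal over background, which touches EGR1 in parental cells most.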
